A study of Mus musculus with 10 samples.

Results

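The genes described here are 10 receptors and regulators of mitophagy, the autophagic removal of mitochondria: Pink1, Tomm7, Ambra1, Bnip3, Bnip3l, Fundc1, Fkbp8, Bcl2l13, Optn and Nipsnap1. They were taken by symbol from a table of 18493 genes, and all 10 were found there and tested. The libraries were made from mouse oocytes of the ovary with SMART-seq2, in which RNA is primed at its poly(A) tail and the full-length cDNA is amplified. There were 4 libraries of oocytes from the spermidine group, described as a rescue, 3 of aged oocytes and 3 of young oocytes, tagged as control. Spermidine is a natural polyamine made by all cells. The series' stated purpose concerns spermidine and the quality of aged oocytes, but the labels do not say that the spermidine oocytes came from aged animals; this was inferred, and every spermidine minus aged value rests on it. The labels give no strain, age in weeks, dose, route or number of oocytes for any group. Nor do they tie libraries to separate animals, and the p-values therefore reflect library to library spread, which may be technical.

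PINK1 is a kinase that is imported and destroyed in healthy mitochondria and builds up on the outer membrane of damaged ones, where it marks proteins with phosphorylated ubiquitin. Adaptors such as optineurin then link the ubiquitin to the growing autophagosome. A second route needs no ubiquitin: outer membrane receptors such as BNIP3, NIX (the product of Bnip3l) and FUNDC1 bind the autophagosome protein LC3 directly. Most of these roles were worked out in human and mouse cell lines. The oocyte is of interest because it supplies the mitochondria of the embryo.

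Library totals lay between 24222201 and 28730822 expected counts. The oocyte markers were abundant in every library: 13 marker genes, Gdf9 and the Zp genes of the egg coat among them, summed to 18036 to 35699 CPM, a count scaled to the size of its library, in the spermidine libraries, 26418 to 34040 CPM in the aged ones and 26942 to 29448 CPM in the young ones. Sohlh1, an early oocyte factor, was the only one of the 13 under 1 CPM throughout. The 10 granulosa and cumulus markers summed to 20.6 to 29.4 CPM in the spermidine libraries, 19.1 to 22.5 CPM in aged ones and 21.5 to 23.8 CPM in young ones. The 8 theca and stromal markers reached at most 2.26 CPM in any library. The summed haemoglobin level was 9.68 CPM in aged replicate 1, with 19.9 in young replicate 1 and 13.6 in young replicate 3; every other library had 0.145 CPM or less. Cyp19a1 (8.81 to 16.7 CPM) and Nr5a2 (3.63 to 8.15 CPM) made up most of the granulosa sum in the libraries, Fshr, Inha and Gja1 had counts in all of them, and Amh was at 0 in all but spermidine replicate 2. Of 6 tested granulosa markers, 2 passed edgeR's test between aged and young oocytes and 1 between spermidine and young. Gja1 was at 0.460 to 5.08 CPM with spermidine, 0.303 to 0.734 CPM in aged oocytes and 1.18 to 2.21 CPM in young oocytes. Hsd17b1 was also lower in aged libraries (0.303 CPM or less) than in young ones (0.431 CPM or more). Other granulosa markers went the other way. Fshr was at 1.101 CPM or more in aged libraries and 0.646 CPM or less in young ones. Nr5a2 was at 5.83 CPM or more in aged libraries and 5.03 CPM or less in young ones. Of 12 tested oocyte markers, 4 passed between aged and young oocytes and 1 between spermidine and aged. Over all tested genes, 17.8% passed between aged and young, 4.86% between spermidine and aged and 5.36% between spermidine and young. Libraries also differed in a trend with transcript length: across 10071 genes, spermidine replicate 1 had a Spearman correlation of 0.22 between its deviations and length, aged replicate 1 had 0.51, and the remaining 8 libraries had -0.32 to 0.06, genes not being independent replicates. With GC content the correlations ran from -0.22 to 0.25 in spermidine libraries, were -0.19, 0.30 and 0.44 in aged replicates 1, 2 and 3 and ran from -0.37 to 0.16 in young libraries. The part of these differences in the results below was not tested, beyond the values given without single libraries and after a correction for length and GC content.

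Between aged and young oocytes, 5 of the 10 mitophagy genes passed edgeR's quasi-likelihood test: Ambra1 and Optn rose, and Nipsnap1, Tomm7 and Bnip3 fell in aged oocytes. Over all 12315 tested genes, 17.8% passed in this comparison, 9.71% as higher and 8.06% as lower. The median log2 fold change of the 10 was 0.25, against 0.10 for all tested genes. Between spermidine and aged oocytes 2 of the 10 passed, Nipsnap1 as higher and Ambra1 as lower with spermidine, where 4.86% of all genes passed, 2.42% as higher and 2.44% as lower. Their median was 0.03, against -0.03 for all genes. Between spermidine and young oocytes 2 passed again, Optn as higher and Nipsnap1 as lower with spermidine, where 5.36% of all genes passed, 3.44% as higher and 1.92% as lower. The median was 0.16 for the 10 and 0.04 for all genes. These comparisons share libraries pairwise, so their values are given side by side and not as separate evidence. A gene passed where its p, adjusted by Benjamini-Hochberg over all tested genes, was under 0.05. In bulk libraries such as these, fewer cells with a transcript and less of it per cell cannot be told apart.

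**Figure D1:**
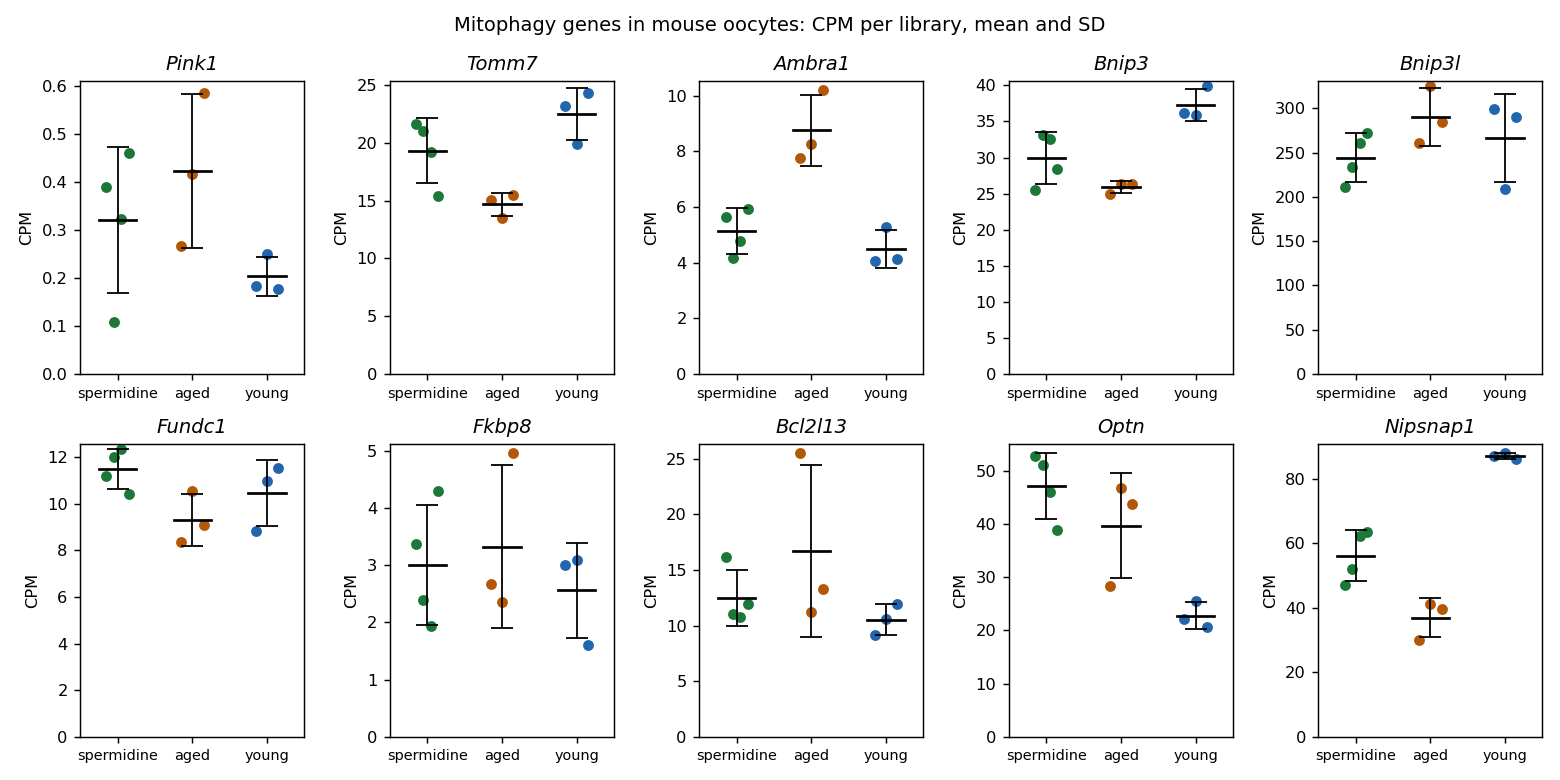
CPM of the 10 mitophagy genes in each library, by group (points: libraries, 4 spermidine, 3 aged and 3 young; bars: mean and SD; each vertical axis starts at 0). Nipsnap1 lay at 30.0 to 41.2 CPM in the aged libraries and at 86.1 to 88.0 CPM in the young ones, with the spermidine libraries between, while Optn lay at 28.4 CPM or more in all spermidine and aged libraries and at 25.5 CPM or less in the young ones.

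Pink1 (Gene ID 68943), the kinase at the head of the pathway, was near the limit of detection. Its counts were 13, 3, 8 and 12 in the spermidine libraries, 8, 11 and 16 in the aged libraries and 4, 7 and 4 in the young libraries. Every aged library lay above every young library in CPM, by a narrow margin, and the spermidine libraries spanned both. Summed over libraries this was 0.323 CPM with spermidine (exact Poisson 95% interval 0.226 to 0.447), 0.419 CPM in aged oocytes (0.292 to 0.582) and 0.208 CPM in young oocytes (0.117 to 0.343). These intervals cover counting error only. The log2 fold change of aged over young was 1.01 (SE 0.53, 95% interval -0.14 to 2.16, edgeR adjusted p = 0.194), so a difference was not detectable at this depth. A level of 3 counts, taken as the floor, corresponds to 0.0902 to 0.138 CPM in these libraries, and spermidine replicate 2 was at that floor.

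Tomm7 (Gene ID 66169) encodes a small subunit of the outer membrane translocase that holds PINK1 at the surface of damaged mitochondria in human cells. It stood at 21.7, 20.99, 19.2 and 15.4 CPM with spermidine, 15.02, 13.5 and 15.5 CPM in aged oocytes and 23.2, 19.9 and 24.3 CPM in young oocytes. All aged libraries were below all young ones, and 3 of 4 spermidine libraries were above every aged library. It fell in aged oocytes by 0.62 on the log2 scale relative to young oocytes (SE 0.17, edgeR adjusted p = 0.0255). With spermidine it was 0.40 above aged (SE 0.16, 95% interval 0.06 to 0.74, edgeR adjusted p = 0.145), which did not pass. The aged call was lost with total count scaling, without aged replicate 2 or 3 or young replicate 1 or 3, and after length and GC correction, where the value was -0.27 (edgeR adjusted p = 0.162).

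Ambra1 (Gene ID 228361) encodes a large scaffold that activates Beclin 1 and, at mitochondria, binds LC3 as a receptor. Its values were 5.65, 4.17, 4.78 and 5.94 CPM with spermidine, 7.77, 8.26 and 10.2 CPM in aged oocytes and 4.05, 5.28 and 4.14 CPM in young oocytes. The aged libraries were the 3 highest of the 10, and spermidine and young libraries overlapped. It rose 1.94-fold in aged over young oocytes (log2 fold change 0.96, SE 0.21, edgeR adjusted p = 0.00975) and fell with spermidine relative to aged oocytes (log2 fold change -0.77, SE 0.19, edgeR adjusted p = 0.0409). Spermidine minus young was 0.19 (SE 0.19, 95% interval -0.23 to 0.61). The aged call was lost without young replicate 1 or 3, and after length and GC correction its value was 0.50 (edgeR adjusted p = 0.0959). The spermidine call was lost without any 1 of spermidine replicates 2 and 3, aged replicates 2 and 3 and young replicates 1 and 3, with total count scaling, without a filter, with the fit limited to spermidine and aged libraries, and after length and GC correction (value -0.50, edgeR adjusted p = 0.102).

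**Figure D2:**
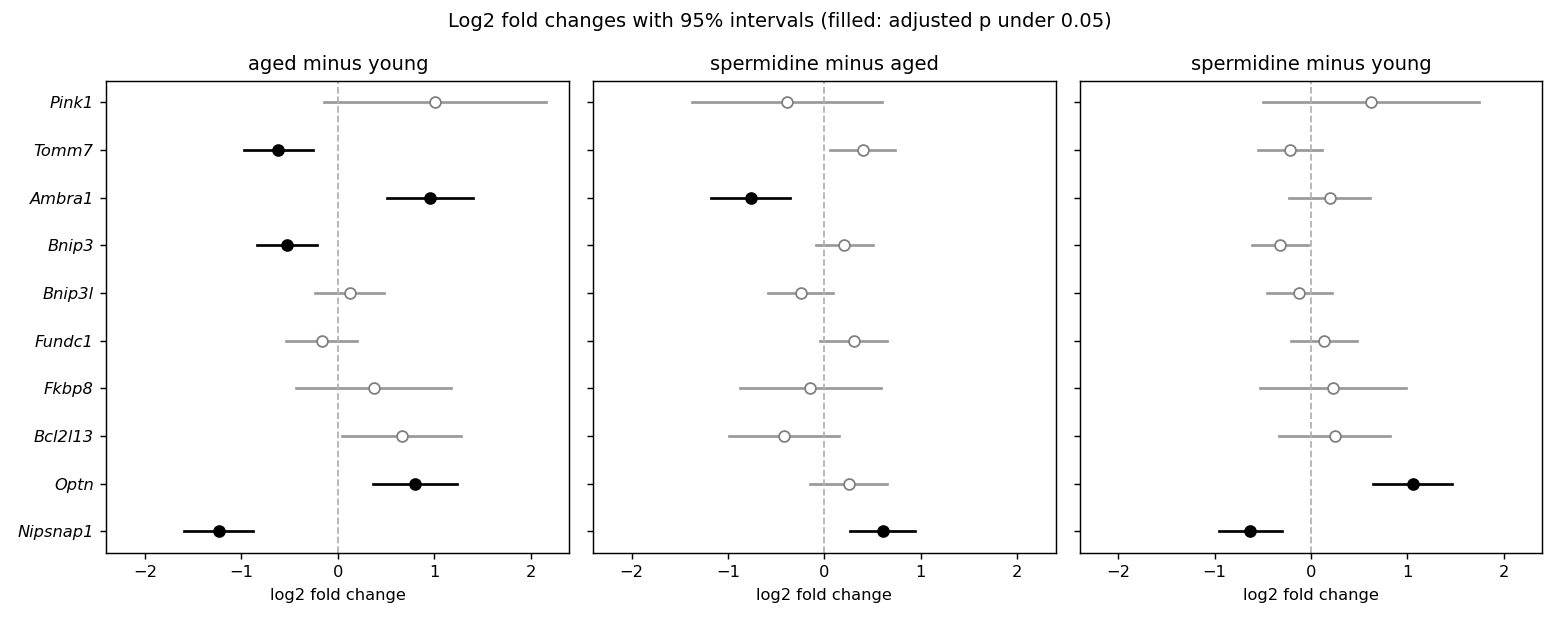
Log2 fold changes of the 10 mitophagy genes in the 3 comparisons (points: estimates; lines: 95% intervals; filled points: edgeR adjusted p under 0.05). Filled points stand on both sides of 0 in each panel; Nipsnap1 is filled in all 3, at -1.24, 0.60 and -0.63.

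Among the outer membrane receptors, Bnip3 alone passed a test. Bnip3 (Gene ID 12176) encodes a receptor that many cells induce under low oxygen. It stood at 25.5, 33.1, 32.5 and 28.4 CPM with spermidine, 24.9, 26.4 and 26.3 CPM in aged oocytes and 36.2, 35.9 and 39.8 CPM in young oocytes. The aged values lay within a narrow band below all young ones, and all spermidine values lay below all young ones too. It fell in aged oocytes by 0.53 on the log2 scale (SE 0.14, edgeR adjusted p = 0.0268), and spermidine minus young was -0.32 (SE 0.13, edgeR adjusted p = 0.205). Its aged call was lost with total count scaling, without a filter, without aged replicate 2 or 3 or young replicate 1 or 3, and after length and GC correction, where the value was -0.22 (edgeR adjusted p = 0.198). The same letters as its transcript, at 95% identity or more over at least 100 bases, occur in 5 other annotated transcripts, an antisense RNA and pseudogenes among them, none with a row in the table, so its counts may include some of their reads. The same limit holds for Bnip3l, with Bnip3l-ps (99.2% over 663 bases). It holds too for Tomm7, with the pseudogenes Gm13450 and Gm45113 (95.8% over 168 and 165 bases).

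Bnip3l (Gene ID 12177), the gene of the receptor NIX, which removes mitochondria from maturing red blood cells, was the most abundant of the 10. It had 211, 233, 260 and 272 CPM with spermidine, 261, 325 and 284 CPM in aged oocytes and 299, 209 and 290 CPM in young oocytes. All 3 groups overlapped. Its log2 fold changes were 0.12 for aged minus young (SE 0.17, 95% interval -0.24 to 0.48), -0.25 for spermidine minus aged (SE 0.15, -0.58 to 0.09) and -0.12 for spermidine minus young (SE 0.15, -0.46 to 0.21), and none passed. The 3 intervals reach no further than -0.58 and 0.48 on the log2 scale.

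These related receptors were also set against each other. Per kilobase of transcript, the ratio of Bnip3l to Bnip3 was 3.15, 2.68, 3.05 and 3.65 in the spermidine libraries, 3.98, 4.69 and 4.11 in the aged libraries and 3.15, 2.22 and 2.77 in the young libraries. Every aged library had a higher ratio than any other library, and spermidine and young libraries overlapped. Means were 3.13 ± 0.400 with spermidine (SD, n = 4), 4.26 ± 0.378 in aged oocytes (SD, n = 3) and 2.71 ± 0.467 in young oocytes (SD, n = 3). The ratio is taken within a library and so does not depend on how libraries were scaled. The lengths multiply all 10 values alike, so the size of the ratio, but not the order of libraries, rests on them. For Bnip3 the length was 1237.5 bases, the median of transcripts of 719 and 1756. The length and GC correction was not applied to the ratio itself. After that correction the aged minus young values of Bnip3l and Bnip3 were 0.16 and -0.22, in place of 0.12 and -0.53. The part of length and GC trends in the ratio was not tested. The ratio is given as a description, with no test.

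**Figure D3:**
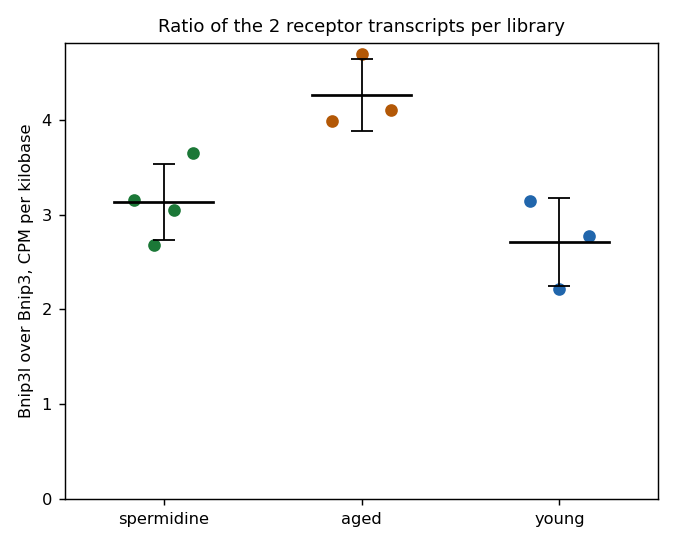
Ratio of Bnip3l to Bnip3 in CPM per kilobase in each library, by group (points: libraries; bars: mean and SD; the axis starts at 0). The 3 aged libraries lie at 3.98 to 4.69, above the 4 spermidine libraries at 2.68 to 3.65 and the 3 young libraries at 2.22 to 3.15.

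Fundc1 (Gene ID 72018), a receptor that acts in low oxygen, varied least of the 10, with 1.48-fold between its highest and lowest library. Its CPM ran from 10.4 to 12.4 with spermidine, 8.34 to 10.5 in aged oocytes and 8.85 to 11.5 in young oocytes, and spermidine minus aged was 0.30 (SE 0.16, 95% interval -0.04 to 0.65, edgeR adjusted p = 0.266). Fkbp8 (Gene ID 14232), an immunophilin-like receptor of the outer membrane, ran from 1.94 to 4.296 CPM with spermidine, 2.35 to 4.95 CPM in aged oocytes and 1.60 to 3.09 CPM in young oocytes. Its intervals were wide, -0.43 to 1.17 for aged minus young, -0.88 to 0.59 for spermidine minus aged and -0.53 to 0.98 for spermidine minus young. Neither gene passed in any comparison, and their groups overlapped in all 3.

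Bcl2l13 (Gene ID 94044), a BCL2-like receptor that can stand in for the yeast mitophagy receptor Atg32, had 16.2, 11.0, 10.7 and 11.9 CPM with spermidine, 25.5, 11.2 and 13.3 CPM in aged oocytes and 9.12, 10.6 and 11.9 CPM in young oocytes. Its highest values were those of aged replicate 1 and spermidine replicate 1, the libraries with the highest length trend, and its annotated transcript of 6925 bases is the longest of the 10. Any link between these was not tested. Aged minus young was 0.66 (SE 0.28, 95% interval 0.05 to 1.28, edgeR adjusted p = 0.119), which did not pass. Without aged replicate 1 it was 0.18, and spermidine minus aged was then 0.02 in place of -0.42. Exons of Bcl2l13 share 628 bases with Bid on the opposite strand, and those of Fkbp8 share 224 with Kxd1. Whether reads were counted by strand is not given in the labels, so reads of these overlaps cannot be told apart.

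Optn (Gene ID 71648) encodes optineurin, the adaptor that binds ubiquitin on mitochondria and LC3. It stood at 52.7, 51.1, 46.0 and 38.8 CPM with spermidine, 28.4, 46.7 and 43.8 CPM in aged oocytes and 22.1, 25.5 and 20.5 CPM in young oocytes. No aged or spermidine library reached down to the highest young library, and spermidine and aged libraries overlapped. It rose 1.74-fold in aged over young oocytes (log2 fold change 0.80, SE 0.20, edgeR adjusted p = 0.0181) and 2.07-fold in spermidine over young oocytes (1.05, SE 0.19, edgeR adjusted p = 0.00666). Spermidine minus aged was 0.25 (SE 0.18, 95% interval -0.15 to 0.65, edgeR adjusted p = 0.432). The aged call was lost without aged replicate 2 or 3, and both calls without young replicate 1 or 3; after length and GC correction both held, at 0.69 and 1.07 (edgeR adjusted p = 0.0292 and 0.00370).

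Nipsnap1 (Gene ID 18082) encodes a protein of the mitochondrial matrix that, in human cells, collects on the surface of depolarised mitochondria and recruits autophagy adaptors. Its values were 47.1, 52.1, 62.2 and 63.5 CPM with spermidine, 30.0, 41.2 and 39.7 CPM in aged oocytes and 87.2, 88.0 and 86.1 CPM in young oocytes. The young libraries lay close together, and none of the 3 groups overlapped. Group means were 56.2 CPM ± 7.94 (SD, n = 4) with spermidine, 37.0 CPM ± 6.08 (SD, n = 3) in aged oocytes and 87.1 CPM ± 0.930 (SD, n = 3) in young oocytes. It fell 2.36-fold in aged relative to young oocytes (log2 fold change -1.24, SE 0.16, edgeR adjusted p = 0.000867), a call kept under all 20 alternatives, where the value ran from -1.32 to -1.11. With spermidine it rose 1.52-fold over aged oocytes (0.60, SE 0.15, edgeR adjusted p = 0.0463) and stayed 1.55-fold lower than in young oocytes (-0.63, SE 0.15, edgeR adjusted p = 0.0306).

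The rise of Nipsnap1 with spermidine over aged oocytes kept its sign in all 20 alternatives (0.47 to 0.69). Its call was lost when any 1 library other than spermidine replicate 1 was left out. It was also lost without a filter, with the fit limited to spermidine and aged libraries, and with a block for replicate number. The call against young oocytes was lost with total count scaling and without spermidine replicate 1 or 2 or any 1 young library. After length and GC correction all 3 calls held (-1.16, 0.58 and -0.58). Its expected counts were not whole numbers in any of the 10 libraries, as happens when reads are divided between genes, while those of the other 9 genes were whole in all libraries. At the identity and length used for Bnip3, no similar transcript was found for Nipsnap1, nor any shared exon. Which gene might share its reads was not identified, and the part of such reads in its values is not known.

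Groups that did not overlap were counted as a further description. Between aged and young oocytes they were apart for 6 of the 10 genes (Pink1 and the 5 that passed), where 40% of all tested genes were apart. For spermidine and aged oocytes it was 2 of 10, Ambra1 and Nipsnap1, against 19.9% of all genes. For spermidine and young oocytes it was 3 of 10, Bnip3, Optn and Nipsnap1, against 21% of all genes.

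**Figure D4:**
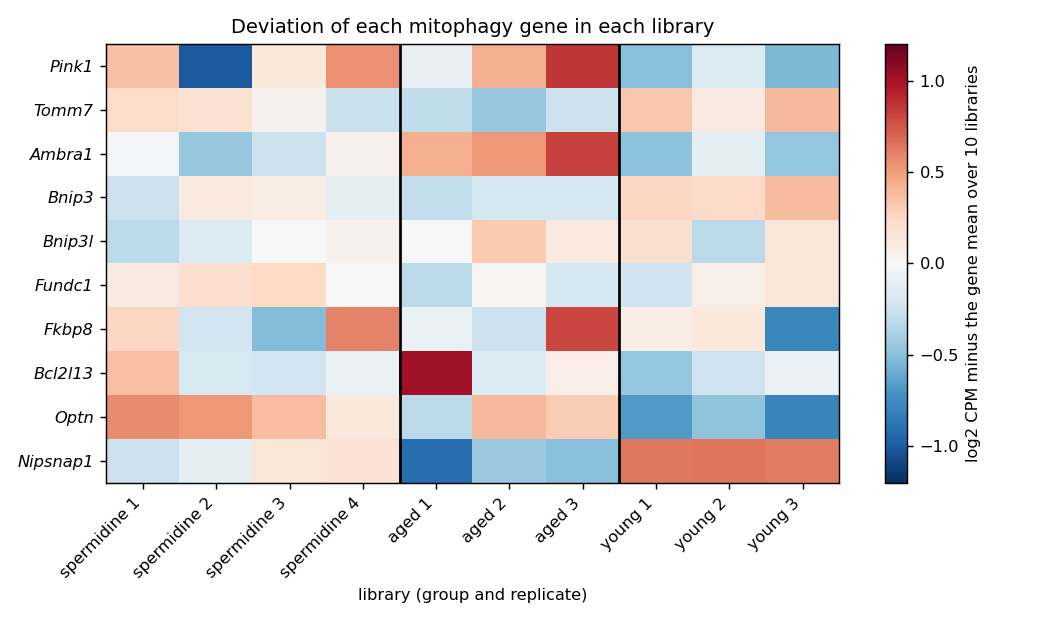
Log2 CPM of each mitophagy gene in each library minus the gene's mean over the 10 libraries (red: above the mean; blue: below; black lines divide the groups). Nipsnap1 is lowest and Bcl2l13 highest in aged replicate 1, and Ambra1 is highest in the 3 aged libraries.

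Levels can be set side by side only per length. In CPM per kilobase of transcript, averaged over the 10 libraries, the order was Bnip3l (81.4), Nipsnap1 (31.0), Bnip3 (24.98), Tomm7 (16.8), Optn (14.95), Fundc1 (12.9), Bcl2l13 (1.90), Fkbp8 (1.72), Ambra1 (1.2) and Pink1 (0.185). The order changed with the group: Bnip3 (20.9) was above Nipsnap1 (19.2) in aged oocytes, Optn was above Tomm7 with spermidine (18.8 and 17.2) and in aged oocytes (15.8 and 13.0), and in young oocytes Optn (9.04) was below Fundc1 (12.8). The lowest library of Bnip3l (64.3) was above the highest of Nipsnap1 (45.7), and the lowest of Fundc1 (10.2) was above the highest of Bcl2l13 (3.69). Ambra1 and Pink1 did not overlap either, while neighbours from Nipsnap1 to Fundc1 and from Bcl2l13 to Ambra1 overlapped over the 10 libraries. Among 11995 tested genes with a length, Bnip3l lay at percentiles 91.3 to 93.8 and Pink1 at 1.65 to 16.0. Bnip3l made up 40.9% of the summed level of the 10 genes with spermidine, 50.7% in aged oocytes and 40.1% in young oocytes. Nipsnap1 made up 15.9%, 10.9% and 22.4%, and Optn 10.3%, 8.88% and 4.50%, of that sum in the same groups. The length of Fundc1 is the least certain, since its annotated transcripts run from 448 to 1983 bases. That of Bnip3 was set at 1237.5 bases, between transcripts of 719 and 1756, and its place above or below Nipsnap1 depends on this choice.

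**Figure D5:**
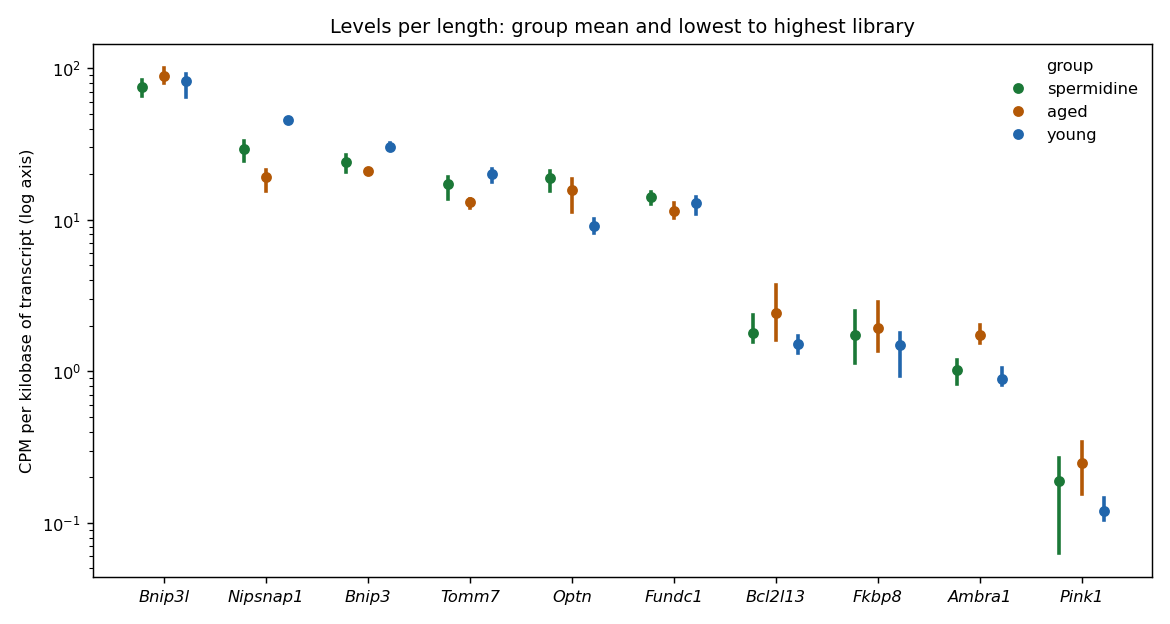
Level of each mitophagy gene in CPM per kilobase of transcript on a log axis, by group (points: group means; lines: lowest to highest library). Group means span from 89.2 for Bnip3l in aged oocytes to 0.120 for Pink1 in young oocytes, and the young Nipsnap1 value lies above the spermidine and aged ones.

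The sequences before the annotated starts of the genes that passed a test are shown because these genes moved in different directions. They are the 250 bases before the RefSeq start on GRCm38.p6, read 5′ to 3′ on the gene's strand, for Nipsnap1 (chr11:4873701-4873950, plus strand), Optn (chr2:5064118-5064367, minus strand), Ambra1 (chr2:91729888-91730137, plus strand) and Bnip3 (chr7:138909507-138909756, minus strand). Capitals mark only ACGTG, a form of the core of the hypoxia response element, on either strand. The form GCGTG was neither searched for nor marked, and all the windows printed here contain it. No window was held for Tomm7 or Bnip3l.
Nipsnap1: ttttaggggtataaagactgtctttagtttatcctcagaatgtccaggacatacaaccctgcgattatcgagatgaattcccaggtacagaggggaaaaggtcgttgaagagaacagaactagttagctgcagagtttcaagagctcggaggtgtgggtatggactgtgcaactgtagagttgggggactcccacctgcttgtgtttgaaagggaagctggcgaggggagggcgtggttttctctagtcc
Optn: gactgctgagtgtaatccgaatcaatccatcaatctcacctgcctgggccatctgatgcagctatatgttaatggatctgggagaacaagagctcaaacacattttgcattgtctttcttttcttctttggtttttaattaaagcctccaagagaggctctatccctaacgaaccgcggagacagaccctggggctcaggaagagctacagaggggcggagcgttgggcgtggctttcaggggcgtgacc
Ambra1: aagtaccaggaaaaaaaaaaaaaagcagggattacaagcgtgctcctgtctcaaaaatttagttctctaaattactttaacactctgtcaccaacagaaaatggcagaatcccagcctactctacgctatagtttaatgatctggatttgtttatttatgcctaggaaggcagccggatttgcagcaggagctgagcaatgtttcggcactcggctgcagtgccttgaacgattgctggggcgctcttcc
Bnip3: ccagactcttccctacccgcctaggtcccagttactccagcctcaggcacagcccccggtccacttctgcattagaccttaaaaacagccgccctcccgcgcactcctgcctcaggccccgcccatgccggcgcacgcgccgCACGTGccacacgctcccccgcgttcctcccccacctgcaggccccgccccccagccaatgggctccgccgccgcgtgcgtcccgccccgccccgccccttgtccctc

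Of the 8 genes with a window, Bnip3 and Fkbp8 held ACGTG, which 16.6% of 32851 windows of this length held on either strand. In Bnip3 it lies inside CACGTG, the E-box that begins 108 bases before the start and contains ACGTG on both strands, and 6.02% of windows hold one. The forkhead motif GTAAACA (3.17% of windows) and TAATTG (7.17%), bound by the oocyte factor NOBOX, were in none of the 8. Only these letters were searched for, so other forms of either motif may be present. The Bnip3 window was 72.4% G and C with 24 CpG, against 48.8% and 6 for Nipsnap1, 44.0% and 7 for Ambra1 and 8 CpG for Optn. The windows of Bcl2l13, Fkbp8, Pink1 and Fundc1 held 20, 16, 13 and 11 CpG. At least 10 CpG were held by 37.8% of all windows. The medians over all windows were 52.4% and 6. Which start the oocyte uses was not measured, and a match is a description of letters, not of a bound site.

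Other genes of the pathway were taken from lists chosen with earlier results known. Of 34 tested further mitophagy genes, 5 were higher and 2 lower in aged than in young oocytes, 1 higher and 1 lower with spermidine than in aged oocytes, and 2 higher and 0 lower with spermidine than in young oocytes. All genes passed at 17.8%, 4.86% and 5.36% in these comparisons, and the 7 calls of 34 between aged and young oocytes are near that share. The list's median log2 fold changes were 0.34, -0.29 and 0.07, against 0.10, -0.03 and 0.04 for all genes. The deubiquitinase gene Usp35 was highest with spermidine and lowest in young oocytes: 1.42 CPM ± 0.319 with spermidine (SD, n = 4), 1.02 CPM ± 0.0484 in aged oocytes (SD, n = 3) and 0.404 CPM ± 0.0530 in young oocytes (SD, n = 3). It rose in aged (1.33, SE 0.30, edgeR adjusted p = 0.0130) and spermidine (1.80, SE 0.29, edgeR adjusted p = 0.00293) over young oocytes. Calcoco1, an autophagy receptor gene related to the adaptor NDP52, rose by 0.98 (SE 0.22) and 0.92 (SE 0.21) in the same comparisons.

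Fis1, a mitochondrial fission gene, had 22.7 CPM ± 1.45 with spermidine (SD, n = 4), 16.2 CPM ± 1.04 in aged oocytes (SD, n = 3) and 24.2 CPM ± 1.24 in young oocytes (SD, n = 3). It fell in aged relative to young oocytes (-0.58, SE 0.14) and rose with spermidine over aged oocytes (0.49, SE 0.13, edgeR adjusted p = 0.0492), with spermidine and young libraries overlapping. Tbc1d15, a FIS1-binding regulator of Rab7, fell with spermidine to 745 CPM ± 103 (SD, n = 4), against 1080 CPM ± 105 in aged oocytes (SD, n = 3; log2 fold change -0.54, SE 0.13, edgeR adjusted p = 0.0444). The ubiquitin-binding adaptor gene Tollip rose in aged over young oocytes (0.67, SE 0.18).

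Of 15 tested genes that import and process PINK1, 0 were higher and 3 lower in aged than in young oocytes, where 9.71% of all genes were higher and 8.06% lower. Their median was -0.10, against 0.10 for all genes. With spermidine, 0 passed by edgeR against aged or young oocytes, where 4.86% and 5.36% of all genes passed. An unadjusted p under 0.05 was had by 2 against aged and 4 against young, and DESeq2 called 0 and 1. The 3 were Timm23 (-0.55, SE 0.12), a channel of the inner membrane, Tomm22 (-0.65, SE 0.18), a receptor of the same outer membrane translocase as Tomm7, and Pmpcb (-0.70, SE 0.19), a subunit of the peptidase that cuts PINK1. Timm23 had 276 CPM ± 18.1 with spermidine (SD, n = 4), 233 CPM ± 19.7 in aged oocytes (SD, n = 3) and 342 CPM ± 9.80 in young oocytes (SD, n = 3), and its 3 groups did not overlap. After length and GC correction only Pmpcb of these 3 passed.

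The 4 tested genes of the LC3 and GABARAP family, to which all these receptors bind, gave 0 calls by edgeR or DESeq2 in any comparison. For aged minus young, spermidine minus aged and spermidine minus young, 2, 1 and 0 of them had an unadjusted p under 0.05. Over all genes, 17.8%, 4.86% and 5.36% passed by edgeR in these comparisons. Among 8 tested partners of AMBRA1, 2 rose in aged over young oocytes, where 9.71% of all genes rose: Ddb1 (0.75, SE 0.18), of the ubiquitin ligase that AMBRA1 joins, and Bcl2l1 (1.26, SE 0.36), which encodes BCL-XL. Both had lower means with spermidine than in aged oocytes, without passing (Bcl2l1 19.2 CPM ± 8.03 with spermidine, n = 4, and 44.6 CPM ± 17.0 in aged oocytes, n = 3, SD; edgeR adjusted p = 0.0527). Of 6 tested transcription factor genes known to act on Bnip3, Bnip3l or Pink1, 1 was higher and 0 lower in aged than in young oocytes. With spermidine, 1 was higher and 1 lower than in aged oocytes. Against young oocytes 0 passed by edgeR or DESeq2, and 0 had an unadjusted p under 0.05. Over all genes, 17.8%, 4.86% and 5.36% passed by edgeR in these comparisons. Tfe3 encodes a lysosome and autophagy regulator that binds E-box sequences. It had 23.3 CPM ± 3.76 with spermidine (SD, n = 4), 35.7 CPM ± 1.79 in aged oocytes (SD, n = 3) and 21.3 CPM ± 2.17 in young oocytes (SD, n = 3). It rose in aged over young oocytes (0.75, SE 0.16, edgeR adjusted p = 0.0110) and fell with spermidine relative to aged oocytes (-0.62, SE 0.15, edgeR adjusted p = 0.0411), and neither call held after length and GC correction (0.26 and -0.31). Nfe2l2, the gene of the oxidative stress factor NRF2, rose with spermidine over aged oocytes (0.82, SE 0.21, edgeR adjusted p = 0.0467). Its aged minus young value was -0.67 (SE 0.22, edgeR adjusted p = 0.0559), which did not pass.

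Most calls of these further genes did not hold under every alternative, although all kept their sign. The calls of Usp35 for spermidine over young and of Fis1 and Timm23 for aged relative to young held whichever library was left out, but those of Fis1 and Timm23 were lost after length and GC correction. The spermidine calls against aged oocytes of Fis1, Tbc1d15 and Nfe2l2 were lost without any 1 library other than spermidine replicate 4, with values of 0.45 to 0.54, -0.61 to -0.46 and 0.74 to 0.96, and that of Tfe3 without spermidine replicate 2 or 3, aged replicate 2 or 3 or any 1 young library. Among aged calls, Usp35 was lost without young replicate 3, Tfe3 without young replicate 1, Calcoco1 without young replicate 1 or 3, Tomm22 without either of these or aged replicate 3, and Bcl2l1 without either or aged replicate 2 or 3. Pmpcb, Ddb1 and Tollip were lost without any 1 young library, and also without aged replicate 3 for Pmpcb, aged replicate 1 for Ddb1 and aged replicate 1 or 2 for Tollip. The call of Calcoco1 for spermidine over young was lost without spermidine replicate 1 or any 1 young library. Of the other settings tried, 7 of 10 lost the Fis1 call with spermidine, 5 of 9 that of Nfe2l2 and 4 of 10 that of Tbc1d15. The length and GC correction also ended the aged calls of Usp35, Calcoco1, Ddb1 and Tollip.

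The authors' deposited table gives its own fold changes for the first 2 comparisons. For aged over young, the authors' deposited table has Nipsnap1 at -1.28 (q = 2.19e-10), Ambra1 at 0.92 (q = 0.00250), Bnip3 at -0.57 (q = 0.00420), Tomm7 at -0.65 (q = 0.00604) and Optn at 0.76 (q = 0.0131) on the log2 scale, and the other 5 genes at q of 0.211 or more. For spermidine over aged, the authors' deposited table has Ambra1 at -0.78 (q = 0.0122) and Nipsnap1 at 0.59 (q = 0.0537), and this Nipsnap1 value is on the other side of 0.05 from the fit described here.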

How the data were processed

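RNA of 10 mouse oocyte libraries was measured by sequencing, 4 spermidine, 3 aged and 3 young, grouped by title. The authors deposited 1 table headed as read counts; part of its values were not whole, so these deposited values were taken to be RSEM expected counts, not normalized, and were rounded here. The deposited table also holds the authors' log2 fold changes with p-values and q-values. Tools listed in the submitters' processing notes are RSEM 1.3.1, Bowtie2 2.3.4.3 and DESeq2 1.4.5, and the build listed is mm9; roles are not given.

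All 10 libraries entered a single group-means model in edgeR 4.0.16 (R 4.3.3), with its filterByExpr filter, TMM scaling and robust quasi-likelihood F tests; the procedure was tested on simulated data. Benjamini-Hochberg adjustment ran over 12315 genes per comparison. CPM are counts relative to the TMM-scaled total, which sets the precision of low genes such as Pink1. SEs follow from the F statistic. The members and lists were chosen with earlier results of these data known. Genes named are the 10 members, up to 6 called genes per list by p, and the 3 nearest patterns of 3 members; 1 list gene is not reported here.

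Lengths and GC content are medians over basic protein-coding transcripts of GENCODE M21 (GRCm38, not mm9), by Gene ID, for 97.4% of tested genes; windows before starts are RefSeq's. Similar transcripts were found with BLAST 2.17.0. Alternatives were RLE factors, total count scaling, other filters, DESeq2 1.42.0, only the 2 groups compared, no robust fit, a replicate block and libraries left out. A loess correction for length and GC (span 0.3) was added after seeing the data; it also removes group differences that follow length or GC. Replicate numbers are not said to mark shared animals. Figures were drawn with matplotlib 3.10.9.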

Additional observations from a re-analysis of the deposited data

How the results depend on the processing

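Members called between aged and young oocytes numbered 5, and 3 with total count scaling, 2 after length and GC correction and 1 to 5 with 1 library left out. Between spermidine and aged oocytes they numbered 2, and 1 with total count scaling, a stricter filter of 10 CPM in 3 libraries, the replicate block or length and GC correction, 0 without a filter or with only the 2 groups compared, and 0 to 2 with 1 library left out; Ambra1 is not in the stricter filter. Between spermidine and young oocytes they numbered 2, and 1 with total count scaling and 0 to 2 with 1 library left out. Where edgeR called 0, 2 or 3 members had an unadjusted p under 0.05, and DESeq2 called 2 in each of these comparisons over all libraries. The counts of all genes under these settings are given next, for comparison.

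All genes called between aged and young oocytes numbered 2189 of 12315 tested. Of the same genes, 1641 passed with total count scaling and 1858 after length and GC correction. They numbered 1179 of 5784 under the stricter filter and 2793 of 18448 with DESeq2. With 1 library left out they numbered 827 to 2362, with 12204 to 12588 genes tested. Between spermidine and aged oocytes they numbered 598 of 12315. Of the same genes, 259 passed with total count scaling and 804 after length and GC correction. They numbered 427 of 5784 under the stricter filter, 1355 of 18448 with DESeq2 and 420 of 18448 without a filter. With only the 2 groups they numbered 124 of 12138, and with the replicate block 996 of 12284. With 1 library left out they numbered 99 to 1127. Between spermidine and young oocytes they numbered 660 of 12315. Of the same genes, 731 passed with total count scaling and 934 after length and GC correction. They numbered 273 of 5784 under the stricter filter, 1073 of 18448 with DESeq2 and 283 to 874 with 1 library left out. Total count scaling moved the median over all tested genes to 0.24 (log2) for aged minus young, where 1236 genes were then higher and 405 lower (1196 and 993 before), and to 0.23 for spermidine minus young, with 605 higher and 126 lower (424 and 236 before; 551 and 522 with DESeq2).

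Values that changed sign belonged to comparisons in which that member had no call. After length and GC correction these were Ambra1 for spermidine minus young (-0.0042) and, for spermidine minus aged, Bnip3 (-0.020), Fundc1 (-0.022) and Fkbp8 (0.050), with Fundc1 (0.22) and Fkbp8 (-0.0089) for aged minus young. Bnip3l turned to 0.053 for spermidine minus young with total count scaling, and Fkbp8 to -0.0052 with the replicate block. With 1 library left out, aged minus young ran from -0.022 to 0.18 for Bnip3l and from -0.029 to 0.57 for Fkbp8, spermidine minus aged from -0.36 to 0.25 for Fkbp8 and from -0.64 to 0.025 for Bcl2l13, and spermidine minus young from -0.0079 to 0.18 for Fundc1 and from -0.075 to 0.39 for Fkbp8. The cause was not tested. The block fit used replicates 1 to 3 and lost the calls of Nipsnap1 (edgeR adjusted p = 0.0528), Fis1 (0.0582) and Nfe2l2 (0.0501) for spermidine minus aged and of Calcoco1 (0.0667) for spermidine minus young. Same-numbered libraries deviated from their group means with correlations from -0.37 to 0.50, so the numbers were not taken to pair libraries. Of 922 values of named genes under alternatives, 757 kept direction and side of the threshold.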

Other observations

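Genes with the pattern most like 3 of the members were ranked among 11671 tested genes by the root mean square difference of centred log2 CPM over the 10 libraries, as a description. For Nipsnap1, whose own root mean square deviation was 0.51, they were Mrpl20 (0.12), a mitochondrial ribosomal protein gene, Rapgef4 (0.13), an exchange factor activated by cyclic AMP, and Ppid (0.15), a cyclophilin gene. For Optn (0.49) they were Gsto1 (0.17), a glutathione transferase gene, Comtd1 (0.20) and Mutyh (0.20), a DNA repair glycosylase gene. For Ambra1 (0.43) they were Fbxo21 (0.10), an F-box gene, Rgs3 (0.12), a regulator of G-protein signalling, and Haspin (0.12), a histone kinase gene.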
